A study of Mus musculus with 6 samples.

Results

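The transcripts of 10 circadian clock genes were followed through the inguinal fat pads of 6 mice: the activators *Arntl* and *Npas2*, the repressors *Per1*, *Per2*, *Per3*, *Nr1d1* and *Nr1d2*, and the clock-driven output factors *Dbp*, *Tef* and *Hlf*. They were taken by name from the 47069 genes of the count tables, and all 10 were among the 17667 genes with enough counts to be tested. Total RNA of the inguinal subcutaneous white adipose tissue (SC-WAT) was sequenced after removal of ribosomal RNA, with 1 library per mouse from 3 *Egr1*+/+ and 3 *Egr1*-/- mice. All 6 mice were 2-week-old females on a C57BL/6 J background. In the *Egr1*-/- mice both copies of *Egr1*, which encodes a zinc finger transcription factor, carried a *LacZ* insertion in the 5′ untranslated region and a frameshift upstream of the DNA-binding domain in every cell, so transcripts of the locus could still be counted. *Egr1* was at 11.6 ± 4.39 CPM (counts scaled by the TMM-normalized library size; mean ± SD, n = 3) in *Egr1*+/+ mice and at 2.55 ± 0.640 CPM in *Egr1*-/- mice, with no overlap (log2 fold change -2.19, adjusted p = 0.0878 over all genes by edgeR). The mice came from several litters, and 1 mouse of each genotype shared a litter. The time of day at which the pads were taken is not given in the sources used here, so genotype and collection time cannot be told apart if they differed.

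The mammalian clock is a loop of transcription and repression that runs in most cells, fat cells included. ARNTL pairs with CLOCK or with its relative NPAS2 and binds E-boxes in the promoters of the *Per*, *Nr1d* and PAR bZIP genes. PER proteins then block the pair, and the nuclear receptors encoded by *Nr1d1* and *Nr1d2* repress *Arntl* and *Npas2*, so that in an adult tissue sampled around the clock the activators peak when the repressors and *Dbp* are low. DBP, TEF and HLF bind D-boxes and carry the rhythm to genes of metabolism, and some *Per* genes also respond directly to hormones and cyclic AMP.

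The letters that these factors read were looked for in short promoter windows. RefSeq promoter windows of 300 bases (250 before and 50 after the transcription start, build GRCm38.p6) were found for 9 of the 10 members, 12 windows in all. *Per2* had no entry. Both strands were searched for the E-box CACGTG, its variant CACGTT, the D-box TTANGTAA, the ROR and NR1D half-site TAGGTCA, the EGR1 motif GCGNGGGCG and the cyclic AMP element TGACGTCA. Matches stand below in capitals, 5′ to 3′ on the strand of the gene, and a motif that lies on the other strand appears as its reverse complement.
*Per1*, E-box 166 bases before the start, chr11:69098756-69098815, plus strand: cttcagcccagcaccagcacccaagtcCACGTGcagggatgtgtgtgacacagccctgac
*Per3*, EGR1 motif on the other strand and D-box 205 bases before the start, chr4:151044856-151044915, minus strand: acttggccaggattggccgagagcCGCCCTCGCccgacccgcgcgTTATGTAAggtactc
*Per3*, a further D-box 158 bases before the start, chr4:151044789-151044850, minus strand: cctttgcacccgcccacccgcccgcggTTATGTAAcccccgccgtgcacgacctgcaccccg
*Nr1d1*, CACGTT on the other strand, chr11:98775373-98775432, minus strand: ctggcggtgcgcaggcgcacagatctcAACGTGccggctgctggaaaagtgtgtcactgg
*Tef*, upstream promoter, E-box 127 bases before the start, chr15:81802519-81802578, plus strand: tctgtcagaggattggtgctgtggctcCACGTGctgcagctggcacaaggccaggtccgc
*Tef*, downstream promoter, E-box 138 bases before the start, chr15:81811249-81811308, plus strand: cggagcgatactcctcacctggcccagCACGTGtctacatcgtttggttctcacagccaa
*Arntl*, half-site 30 bases after the start, chr7:113207514-113207560, plus strand: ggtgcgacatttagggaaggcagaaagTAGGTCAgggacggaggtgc
*Hlf*, cyclic AMP element at the start, chr11:90390892-90390953, minus strand: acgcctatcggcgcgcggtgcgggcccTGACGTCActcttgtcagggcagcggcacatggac

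The CACGTG E-box was in 3 of the 12 windows, and in 7.15% of all 32851 mouse windows of this length. The D-box was in 1 window, that of *Per3*, which held 2 copies, and 2.32% of all windows held at least 1. The EGR1 motif was in 1 of the 12 windows against 5.55% of all windows, the half-site in 1 against 2.61%, CACGTT in 1 against 4.68%, and the cyclic AMP element in 1 against 1.79%. The windows of *Npas2*, *Nr1d2* and *Dbp* held none of these letters. *Arntl* and *Per1* had 2 windows each, and only 1 of each held a match. The *Arntl* half-site lay in the window of the more downstream start, and the *Per1* E-box in that of the more upstream start. Distances are counted from the RefSeq start. A stretch of 25 bases just after it was found in a GENCODE transcript of the gene for all windows but those of *Nr1d1* and *Hlf*. Their starts are less certain to that extent. A match is a string of letters in a short window and says nothing of binding in these mice. A window without a match says nothing of sites elsewhere in the gene.

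Per kilobase of exon, the members spanned a wide range of levels over the 6 mice. *Nr1d2* was the most abundant, at 7.88 ± 1.25 CPM per kilobase (SD, n = 6), and *Tef* followed at 6.00 ± 1.06. The *Per* genes came next, with *Per1* at 4.03 ± 0.815, *Per2* at 3.24 ± 0.757 and *Per3* at 3.16 ± 0.522. *Nr1d1* was at 2.09 ± 0.471. *Hlf*, *Dbp* and *Arntl* were nearly level, at 1.45 ± 0.404, 1.39 ± 0.288 and 1.37 ± 0.259, and *Npas2* was lowest at 0.445 ± 0.140 CPM per kilobase. Neighbours in this order overlapped in their ranges over mice, apart from *Npas2*, whose highest mouse (0.627) lay under the lowest mouse of *Arntl* (1.01). *Nr1d2* thus exceeded its paralog *Nr1d1* in every mouse, and *Arntl* exceeded *Npas2* in every mouse.

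**Figure D1:**
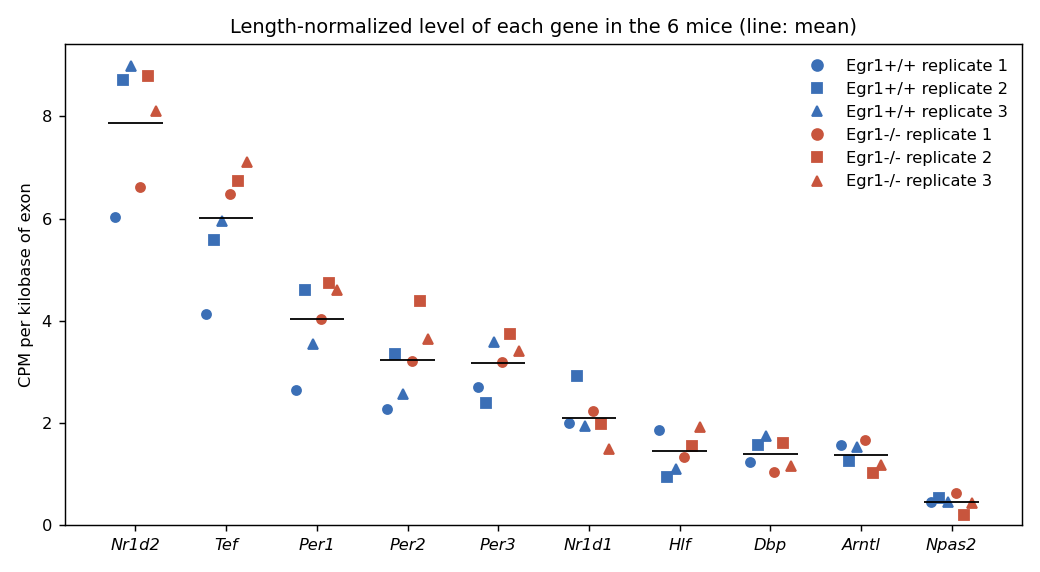
Level of each clock gene in CPM per kilobase of exon (linear axis), 1 point per mouse, *Egr1*+/+ in blue and *Egr1*-/- in red, with genes ordered by their mean. *Nr1d2* and *Tef* lie highest and *Npas2* lies below every other member.

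None of the 10 members differed between genotypes past an adjusted p of 0.05, and over all genes tested 0.017% did (3 genes; quasi-likelihood test of edgeR, adjusted by Benjamini-Hochberg). At an unadjusted p under 0.05, 2 members were higher in *Egr1*-/- mice, *Per2* and *Tef*, where 5.06% of all genes were. No member was lower at that level, against 5.6% of all genes, and DESeq2 called 0 of the 10 beside 2.11% of all genes (372). The log2 fold changes of *Egr1*-/- over *Egr1*+/+ mice were positive for 5 members and negative for 5, with a median of 0.12 beside 0.0011 over all genes. All 3 *Egr1*-/- mice lay above all 3 *Egr1*+/+ mice for 1 of the 10, *Tef*, and 8.15% of all genes showed such a separation. For 0 of the 10 did they all lie below, against 8.1% of all genes. The replicates were separate mice. In bulk tissue, fewer cells of a type and less RNA per cell cannot be told apart.

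**Figure D2:**
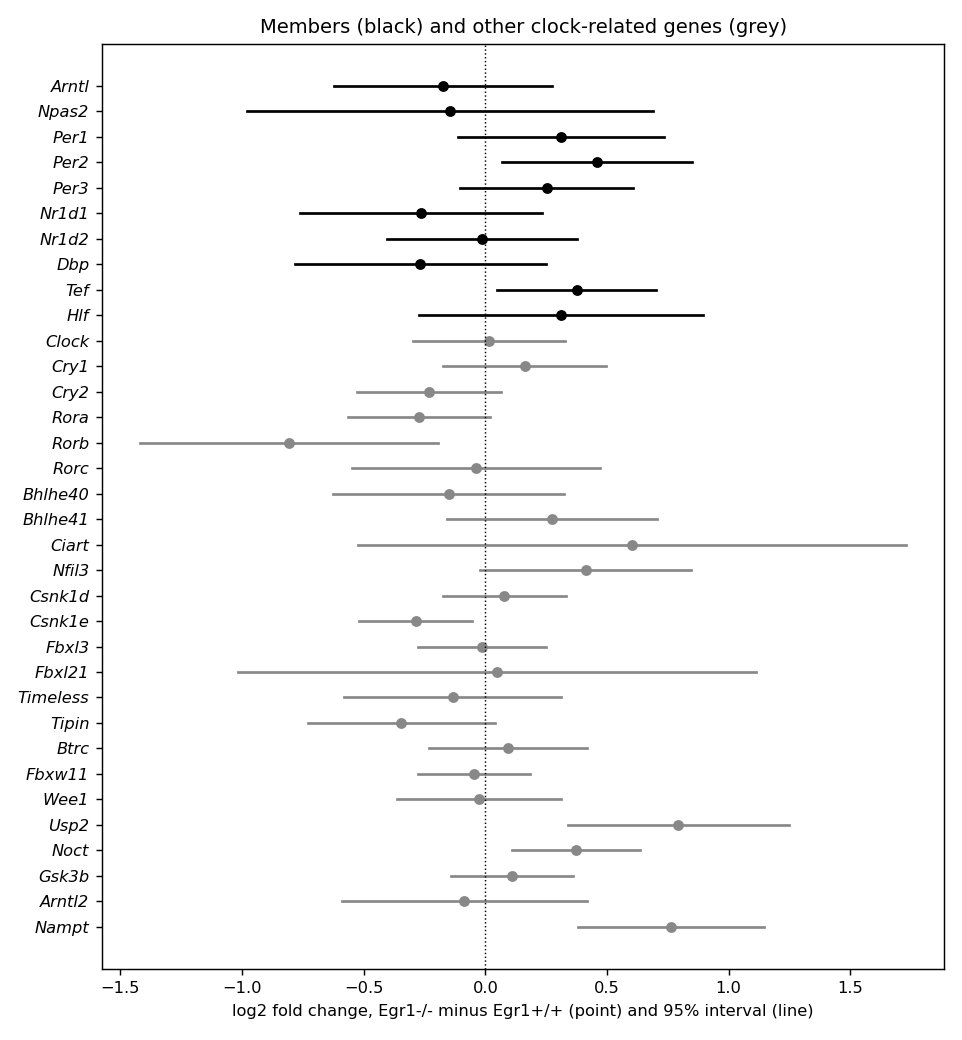
Log2 fold change of *Egr1*-/- over *Egr1*+/+ mice (x axis) with its 95% interval from the edgeR fit, for the 10 members in black and other clock genes in grey. Among the members only the intervals of *Per2* and *Tef* lie above 0.

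*Arntl* (ENSMUSG00000055116, GRCm38 chromosome 7, 113207465 to 113314126) encodes the activator without which the loop does not run. Its level was 11.8, 9.46 and 11.5 CPM in *Egr1*+/+ replicates 1 to 3 and 12.6, 7.62 and 8.86 CPM in *Egr1*-/- replicates 1 to 3. The genotypes overlapped, since the highest and the lowest mouse were both *Egr1*-/-. Between genotypes the log2 fold change was -0.17, with an SE of 0.198 and a 95% interval of -0.62 to 0.27 (adjusted p = 0.814).

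*Npas2* (ENSMUSG00000026077, chromosome 1, 39193731 to 39363236), whose product can take the place of CLOCK, was the most variable member, resting on between 30 and 100 counts per mouse. The *Egr1*+/+ mice had 2.12, 2.497 and 2.11 CPM and the *Egr1*-/- mice 3.002, 0.968 and 2.101 CPM. The *Egr1*+/+ values were tight, and the *Egr1*-/- mice held both the highest and the lowest value, as for *Arntl*. Between these extremes lay a 2.98-fold range, the widest among the members. The log2 fold change was -0.14 with an interval of -0.98 to 0.69 (adjusted p = 0.922), so a wide range of differences could not be told from none for this gene.

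Among the repressors, *Per2* (ENSMUSG00000055866, chromosome 1, 91415982 to 91459324, minus strand) had the largest difference between genotypes of the 10 members. PER2 is the partner of the cryptochromes in the complex that silences ARNTL. The *Egr1*+/+ mice had 13.3, 19.6 and 15.0 CPM and the *Egr1*-/- mice 18.9, 25.6 and 21.3 CPM. The overlap was small: *Egr1*+/+ replicate 2 lay above *Egr1*-/- replicate 1, and the other mice were separated by genotype. The means were 16.0 ± 3.24 and 21.9 ± 3.43 CPM, and the log2 fold change was 0.46 with an SE of 0.173 and an interval of 0.07 to 0.85. The adjusted p was 0.383, so the difference did not pass the test across all genes.

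*Per1* (ENSMUSG00000020893, chromosome 11, 69095217 to 69109960), a *Per* gene that answers quickly to hormones and light signals, ran at 14.9, 25.9 and 19.996 CPM in *Egr1*+/+ mice and at 22.7, 26.73 and 26.0 CPM in *Egr1*-/- mice. *Egr1*+/+ replicate 1 stood lowest and replicate 2 reached the *Egr1*-/- values. A log2 fold change of 0.31 was fitted, with an interval of -0.11 to 0.73 (adjusted p = 0.609). Without *Egr1*+/+ replicate 1 it was 0.12.

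*Per3* (ENSMUSG00000028957, chromosome 4, 151003652 to 151044665, minus strand) has a lesser part in the core loop, and its promoter window held the D-boxes and the EGR1 motif shown above. Its level was 25.9, 23.0 and 34.4 CPM in *Egr1*+/+ mice and 30.6, 35.8 and 32.7 CPM in *Egr1*-/- mice. *Egr1*+/+ replicate 3 lay within the *Egr1*-/- values. Its log2 fold change was 0.25, with an interval of -0.10 to 0.61 (adjusted p = 0.626).

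The nuclear receptor genes gave no positive difference. *Nr1d1* (ENSMUSG00000020889, chromosome 11, 98767932 to 98775333, minus strand), which encodes REV-ERBα, was at 6.14, 8.99 and 5.98 CPM in *Egr1*+/+ mice and 6.84, 6.10 and 4.59 CPM in their *Egr1*-/- counterparts. *Egr1*+/+ replicate 2 was highest and *Egr1*-/- replicate 3 lowest, and the other 4 mice lay close together. For *Nr1d1* the log2 fold change was -0.26, with an interval of -0.76 to 0.23 (adjusted p = 0.736). Exons of *Nr1d1* and of *Thra* on the opposite strand share 263 bases, 8.55% of the exon bases of *Nr1d1*, and *Thra* was far more abundant, at 42.9 to 59.1 CPM. The strand setting of the counting is not given in the sources used here, so the level of *Nr1d1* is uncertain to that extent.

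*Nr1d2* (ENSMUSG00000021775, chromosome 14, 18204054 to 18239127, minus strand), which encodes REV-ERBβ, was the closest of the 10 to no difference. The *Egr1*+/+ mice had 32.6, 47.1 and 48.6 CPM and the *Egr1*-/- mice 35.8, 47.6 and 43.9 CPM. Replicate 1 of each genotype was low and the other 4 mice were alike. The log2 fold change was -0.01 with an interval of -0.40 to 0.38 (adjusted p = 0.988).

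The 3 output factors are PAR bZIP proteins that bind the same D-box, and their differences had no common direction. *Tef* (ENSMUSG00000022389, chromosome 15, 81802421 to 81826863) was at 32.6, 43.9 and 46.8 CPM in *Egr1*+/+ mice and 51.1, 52.9 and 56.0 CPM in their *Egr1*-/- counterparts, with no overlap. The means were 41.1 ± 7.54 and 53.3 ± 2.47 CPM. The log2 fold change was 0.38 with an SE of 0.145 and an interval of 0.05 to 0.70 (adjusted p = 0.400), and without *Egr1*+/+ replicate 1, the lowest mouse, it was 0.22.

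*Dbp* (ENSMUSG00000059824, chromosome 7, 45705088 to 45710203), whose transcript has one of the deepest daily rhythms in many adult tissues, was at 3.70, 4.69 and 5.22 CPM in *Egr1*+/+ mice and at 3.09, 4.81 and 3.43 CPM in *Egr1*-/- mice. The *Egr1*-/- mice held the lowest values, and *Egr1*-/- replicate 2 lay among the *Egr1*+/+ mice. Its log2 fold change was -0.27, with an interval of -0.78 to 0.25 (adjusted p = 0.742). Exons of *Dbp* and of *Sphk2* on the opposite strand share 539 bases, 18% of the exon bases of *Dbp*, and *Sphk2* ran at similar levels, 4.02 to 7.26 CPM, so reads from the shared stretch could belong to either.

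*Hlf* (ENSMUSG00000003949, chromosome 11, 90336536 to 90390895, minus strand) was at 12.4, 6.23 and 7.28 CPM in *Egr1*+/+ mice and at 8.94, 10.4 and 12.9 CPM in *Egr1*-/- mice. *Egr1*+/+ replicate 1, the lowest mouse for *Tef*, was the second highest for *Hlf*. For *Hlf* the log2 fold change was 0.31, with an interval of -0.27 to 0.89 (adjusted p = 0.736). It was 0.65 without *Egr1*+/+ replicate 1 and 0.13 without *Egr1*+/+ replicate 2.

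**Figure D3:**
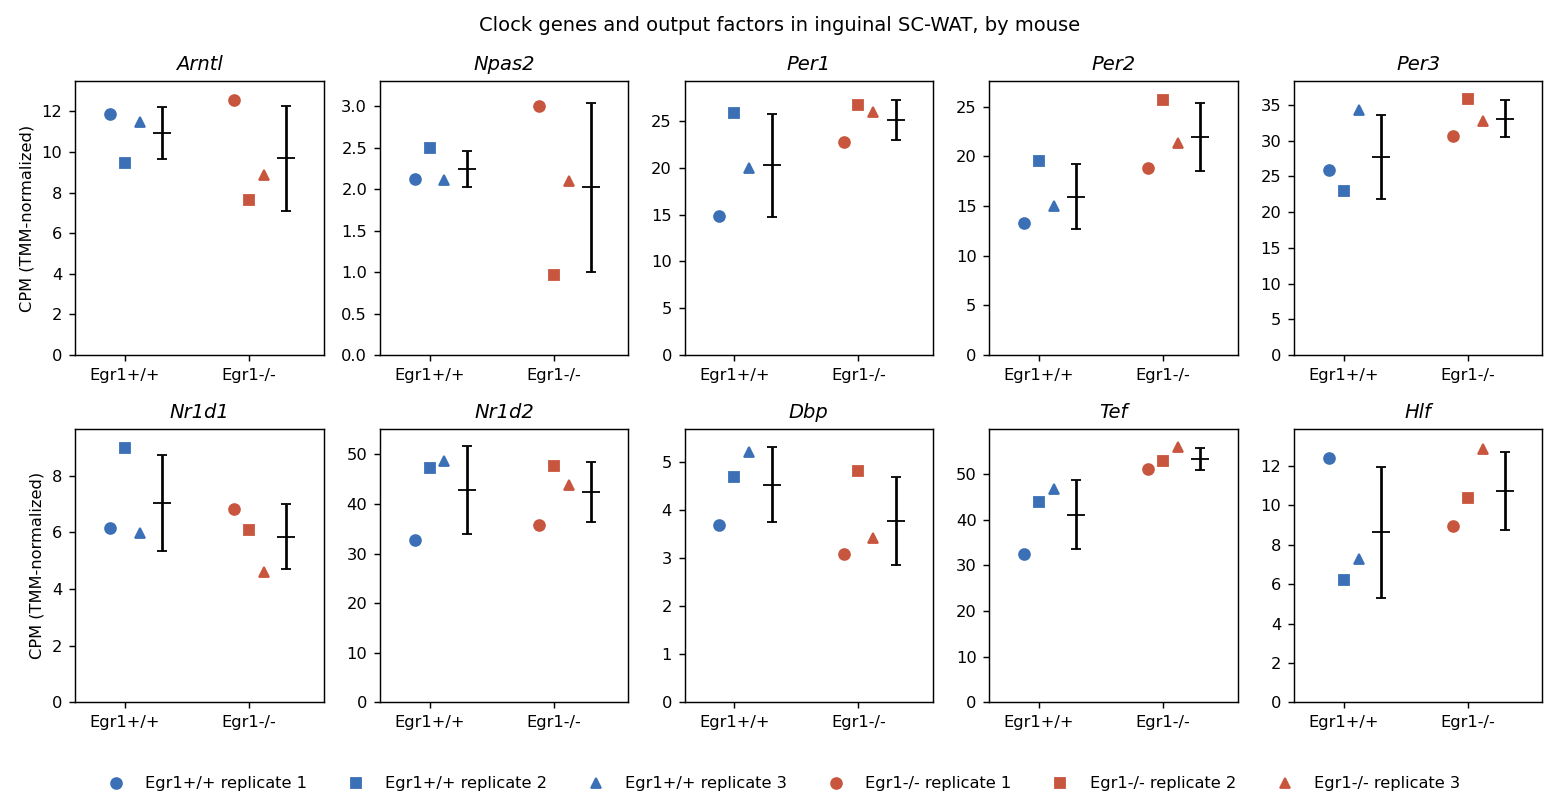
Level of each of the 10 members in CPM, 1 point per mouse, with the mean and SD of each genotype beside the points (*Egr1*+/+ blue, *Egr1*-/- red, n = 3 each). *Tef* is the only panel in which every *Egr1*-/- point lies above every *Egr1*+/+ point.

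The typical spread of the members between mice was close to that of all genes tested. From the lowest to the highest mouse the members spanned 1.49-fold to 2.98-fold, with a median of 1.75-fold, beside 1.63-fold over all genes tested. The biological coefficient of variation within genotypes had a median of 0.186 over the members and of 0.196 over all genes, and *Npas2* was highest at 0.324.

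The order of the mice differed between the arms of the loop. *Egr1*-/- replicate 2 had the highest *Per1*, *Per2* and *Per3* and the lowest *Arntl* and *Npas2*, and its *Npas2* lay 1.02 log2 units below the mean of the 6 mice (log2 deviation -1.02). *Egr1*+/+ replicate 1 had the lowest *Per1*, *Per2*, *Nr1d2* and *Tef* (log2 deviation -0.58 for *Per1*) and the second highest *Arntl*. *Egr1*-/- replicate 1 had the highest *Arntl* and *Npas2* and the lowest *Dbp*. Both ends of the activators were thus held by *Egr1*-/- mice. *Egr1*-/- replicate 2 also had the highest summed level of the 9 lymphocyte markers, 222.8 CPM against 83.0 to 154 CPM in the other mice, and *Egr1*+/+ replicate 1 the lowest sum of 14 glucocorticoid-responsive genes, *Per1* among them, 583 CPM against 863 to 1103 CPM. Their part in the order of the mice was not tested.

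**Figure D4:**
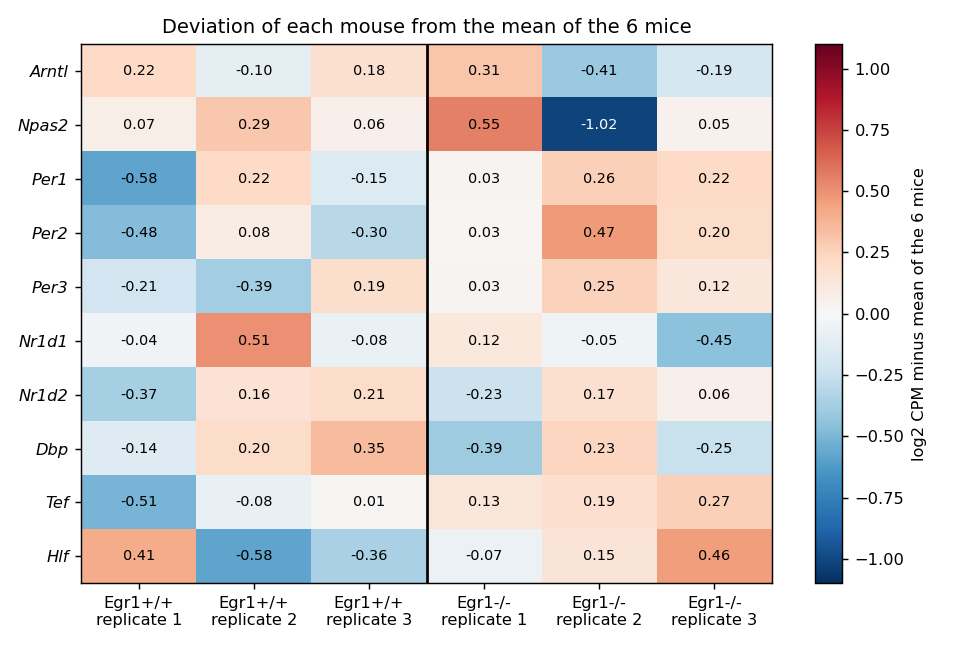
Log2 deviation of each member from its mean over the 6 mice (colour scale), with members as rows and mice as columns. *Egr1*-/- replicate 2 is low for *Arntl* and *Npas2* and high for the *Per* genes, and *Egr1*+/+ replicate 1 is low for *Per1*, *Per2* and *Tef*.

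Of the 9 other members, 7 correlated negatively with *Arntl* across the 6 mice, which share a depot, an age and in part a litter. Negative signs were common among all genes. Of 9773 genes with a mean of at least 5 CPM, ordered from the highest r to *Arntl*, *Nr1d1* (0.16) stood at rank 4009 and *Hlf* (-0.14) at rank 5854. The 7 included weak values, *Hlf* and *Per3* (-0.27), and members that moved together, so the count alone shows no opposed phase. For *Per2* Pearson's r was -0.82 (exact permutation p = 0.0556) and Spearman's rho -0.83 (exact permutation p = 0.0583). Without the 2 mice farthest from the median of *Arntl* r was -0.99, and within genotypes, after removal of the genotype means, it was -0.86. For *Per1* r was -0.71 (exact permutation p = 0.0931) and rho -0.83 (exact permutation p = 0.0583), with -0.91 without those 2 mice and -0.64 within genotypes. After Benjamini-Hochberg adjustment over the 9 pairs the exact permutation p was 0.269 for *Per2* and 0.279 for *Per1*, so neither relation passed.

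The activators ran together, *Npas2* with r of 0.76 to *Arntl* (exact permutation p = 0.0597, adjusted 0.269) and rho of 0.83 (exact permutation p = 0.0583), but this rested on the mice at the ends. Without the 2 farthest mice r was -0.37. *Nr1d1*, the direct repressor of *Arntl*, had r of 0.16 and rho of 0.43 with it, and *Dbp* had r of -0.38 and rho of -0.43 (exact permutation p from 0.419 to 0.783). Within genotypes r to *Arntl* was -0.02 for *Nr1d1* and -0.71 for *Dbp*, and without the 2 farthest mice r was 0.07 and 0.32. The sign for *Dbp* thus depended on which mice were used, and that for *Nr1d1* on the centring. *Nr1d2* had r of -0.64 to *Arntl* and *Tef* -0.49, with exact permutation p of 0.207 and 0.347.

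Over all 45 pairs of members, *Per1* and *Per2* were the closest. Their order over the 6 mice was identical (Spearman's rho of 1, exact permutation p = 0.00278), with r of 0.92 (exact permutation p = 0.00139, the smallest that 720 pairings can give). Without the 2 mice farthest from the median r was 0.72, and within genotypes 0.89. After adjustment over the 45 pairs the exact permutation p was 0.0625, just short of the threshold. *Per1* with *Tef* had r of 0.86 (exact permutation p = 0.0458, adjusted 0.448) and 0.04 without the 2 farthest mice, so that relation rested on them.

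**Figure D5:**
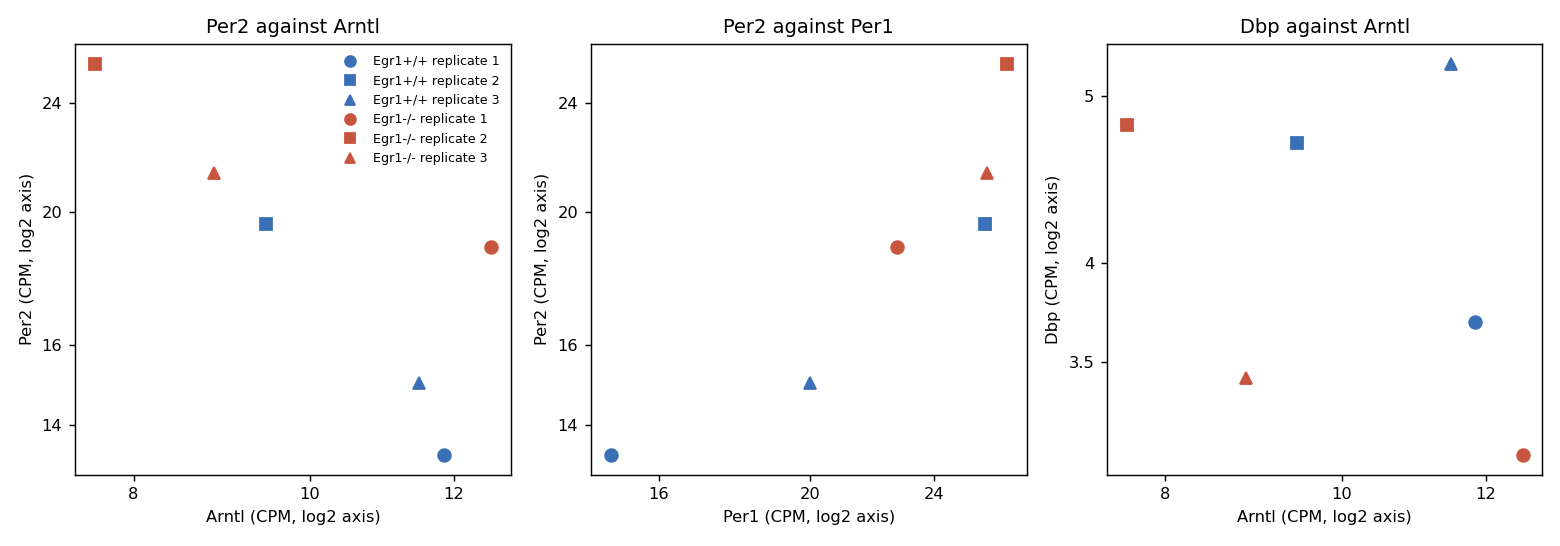
Levels in CPM on log2 axes for *Per2* against *Arntl*, *Per2* against *Per1* and *Dbp* against *Arntl*, 1 point per mouse (*Egr1*+/+ blue, *Egr1*-/- red; circle, square and triangle for replicates 1, 2 and 3). *Per2* is low where *Arntl* is high, apart from *Egr1*-/- replicate 1, and follows *Per1* in the same order (rho of 1), and *Dbp* against *Arntl* gives r of -0.38, or -0.71 within genotypes.

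Ratios between members do not depend on the scaling of the libraries, and 7 were compared between genotypes. The log2 ratio of *Dbp* to *Arntl* was -1.68, -1.01 and -1.14 in *Egr1*+/+ replicates 1 to 3, against -2.02, -0.66 and -1.37 in *Egr1*-/- mice. The *Egr1*-/- mice spanned the *Egr1*+/+ values, and the difference of the means was -0.08 (exact two-sided permutation p = 1). The log2 ratio of *Per2* to *Arntl* was 0.17, 1.05 and 0.39 in *Egr1*+/+ mice, against 0.58, 1.75 and 1.27 in *Egr1*-/- mice, a difference of 0.67 (exact two-sided permutation p = 0.2). *Nr1d1* to *Arntl* differed by -0.06 and *Dbp* to *Npas2* by 0.01, with exact permutation p of 0.8 and 1. *Per3* to *Arntl* differed by 0.47, *Per1* to *Arntl* by 0.54 and *Tef* to *Arntl* by 0.59, with exact permutation p of 0.2, 0.2 and 0.3. Adjusted over the 7 ratios, no p was under 0.467, and with 3 mice against 3 no exact p can be under 0.1. The ratios of *Per1*, *Per2* and *Tef* were added after the values had been seen.

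The wider clock was read from 24 other core clock and clock-regulated genes, all of them tested. By edgeR 0 of the 24 had an adjusted p under 0.05, and at an unadjusted p under 0.05, 3 were higher in *Egr1*-/- mice and 2 lower, where 5.06% and 5.6% of all genes were. Of the 24, 12 had a positive and 12 a negative log2 fold change. *Clock*, the usual partner of *Arntl*, was at 126 ± 7.39 CPM in *Egr1*+/+ and 127 ± 19.6 CPM in *Egr1*-/- mice (log2 fold change 0.01, adjusted p = 0.983). The cryptochromes gave log2 fold changes of 0.16 for *Cry1* and -0.23 for *Cry2* (adjusted p = 0.758 and 0.591).

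*Nampt*, which encodes the rate-limiting enzyme of the NAD salvage pathway and is driven by the clock in several tissues, had the lowest p of these genes. The *Egr1*+/+ mice had 94.2, 110.3 and 83.4 CPM and the *Egr1*-/- mice 158, 134 and 197 CPM, without overlap. The log2 fold change was 0.76 with an SE of 0.169 (adjusted p = 0.193 in edgeR). *Usp2*, a deubiquitinase gene with a strong daily rhythm, was at 5.44, 5.29 and 4.15 CPM and at 7.77, 7.23 and 10.8 CPM, again without overlap, with a log2 fold change of 0.79 and an SE of 0.201 (adjusted p = 0.227 in edgeR). DESeq2 called both, *Nampt* at an adjusted p of 0.00211 and *Usp2* at 0.0283, and no other gene of the 24, where it called 2.11% of all genes.

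The other 3 genes with the lowest p were separated by genotype too. All *Egr1*-/- mice lay above all *Egr1*+/+ mice for 3 of the 24 genes, against 8.15% of all genes. They all lay below for 2 of the 24, against 8.1%. The genes were named by their p, so their separation adds no further support. *Noct*, the rhythmic gene of nocturnin, was at 51.5, 47.8 and 53.9 CPM in *Egr1*+/+ mice and 59.9, 66.4 and 72.3 CPM in *Egr1*-/- mice (log2 fold change 0.37, adjusted p = 0.300). *Rorb*, of the ROR family of nuclear receptors, had a log2 fold change of -0.81, and *Csnk1e*, a kinase gene whose product marks PER proteins for breakdown, of -0.29 (adjusted p = 0.327 and 0.359). Neither passed the test.

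Marker levels of several cell types differed between the pads, although edgeR called 0 markers of any list at an adjusted p under 0.05 (DESeq2 called 6 brown and beige, 2 white adipocyte and 2 macrophage markers). The 7 white adipocyte markers were abundant in all mice, summing to 8599 to 9326 CPM in *Egr1*+/+ and 7000 to 7964 CPM in *Egr1*-/- mice, and no one of them was at 0 in any mouse. The 7 tested brown and beige adipocyte markers summed to 525 to 672 CPM and to 927 to 1547 CPM, without overlap. *Tef*, *Nampt* and *Usp2* were also separated upward, as were 8.15% of all genes, while 5 of the 10 members had a negative log2 fold change. The 5 macrophage markers summed to 228 to 321 CPM in *Egr1*+/+ and 160 to 220 CPM in *Egr1*-/- mice. The 12 skeletal muscle markers ran from 220 to 3565 CPM in *Egr1*+/+ and from 111 to 2878 CPM in *Egr1*-/- mice. With the muscle sum as a covariate the log2 fold changes were 0.51 for *Per2* and 0.37 for *Tef*. The 5 endothelial markers summed to 359 to 454 CPM and 325 to 487 CPM, and the 7 mammary epithelial markers to 1.397 to 11.9 CPM and 5.95 to 9.70 CPM. The part of the other cell types in the levels of the clock genes was not tested.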

How the data were processed

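The authors extracted total RNA from inguinal fat pads, depleted ribosomal RNA, mapped the reads to GRCm38 with TopHat and Bowtie, counted them on GENCODE M8 genes with featureCounts, and deposited raw counts per gene, 1 table per mouse. Strand and multimapping settings of the counting are not given in the sources used here. Each library held 29661984 to 42357981 counts on genes, 50.0% to 66.3% of them mitochondrial.

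Groups came from the sample labels. The tests were run with edgeR 4.0.16 under R 4.3.3: filterByExpr, TMM normalization and the quasi-likelihood test of genotype with Benjamini-Hochberg adjustment over 17667 genes at 0.05. Log2 CPM used a prior count of 2. CPM per kilobase used union exon length. DESeq2 1.42.0 and limma 3.58.1 gave alternatives. The fit was tested on simulated data. Identifiers were matched to GENCODE M21 (46574 of 47069), which also gave gene coordinates. Ratios and correlations were tested by exact permutation. Promoters came from RefSeq.

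The members, lists and tests were chosen with earlier results of these data known. From each clock, glucocorticoid and immediate-early list the 5 genes with the lowest p were named, and for likeness the 5 genes with the highest r to *Arntl* and to *Dbp*. The paper gives paired-end and the labels single-end reads.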

Additional observations from a re-analysis of the deposited data

How the results depend on the processing

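The calls and log2 fold changes of the members were recomputed with RLE and upper-quartile normalization, without mitochondrial genes, without a filter on low counts, with DESeq2, limma-voom and a skeletal muscle covariate, with the replicate number as a block, and without each mouse in turn. The number of members called was 0 in each of them. In all 14 alternatives the log2 fold changes of *Arntl*, *Per1*, *Per2*, *Per3*, *Nr1d1*, *Dbp*, *Tef* and *Hlf* kept their direction, with 0.33 to 0.63 for *Per2* and 0.22 to 0.48 for *Tef*. Their lowest adjusted p were 0.138 for *Per2* (no filter) and 0.274 for *Tef* (DESeq2). Single mice moved other values too: *Arntl* ran from -0.41 (without *Egr1*-/- replicate 1) to -0.02 (without *Egr1*-/- replicate 2), *Dbp* from -0.47 (without *Egr1*-/- replicate 2) to -0.14 (without *Egr1*-/- replicate 1), *Nr1d1* from -0.39 (without *Egr1*-/- replicate 1) to -0.05 (without *Egr1*+/+ replicate 2), and *Per3* from 0.13 (without *Egr1*+/+ replicate 2) to 0.43 (without *Egr1*+/+ replicate 3). *Nr1d2* turned to 0.0036 without the filter and ran from -0.19 to 0.10 when a mouse was left out. *Npas2* ran from -0.54 to 0.19, positive without *Egr1*-/- replicate 2. Members with an unadjusted p under 0.05 numbered 0 to 3 when a mouse was left out: 0 without *Egr1*-/- replicate 2 and 1 without *Egr1*+/+ replicate 1 or *Egr1*-/- replicate 3. The difference in the *Dbp* to *Arntl* ratio of -0.08 ran from -0.42 to 0.26 without single mice, positive without *Egr1*+/+ replicate 2 or *Egr1*-/- replicate 1, and the other planned ratios gave 0.47 (*Per3* to *Arntl*), 0.015 (*Dbp* to *Npas2*) and -0.06 (*Nr1d1* to *Arntl*). With the replicate block the *Dbp* to *Arntl* difference was -0.08. The deviations of same-numbered mice correlated at -0.0888, 0.106 and -0.126. Without the values of other pairs beside them, these cannot show whether equal replicate numbers pair the mice. With the replicate block 0 members and 0 genes in all were called, and *Per2* was at 0.47. Over all genes the calls numbered 3 with edgeR, 372 with DESeq2, 552 of 38261 genes without the filter, 1 with limma-voom, 6 with the muscle covariate, 0 with upper-quartile scaling, 59 without *Egr1*-/- replicate 1 and 0 without each other mouse. Members with a negative correlation to *Arntl* numbered 6 or 7 of 9 after centring on genotype means, without mitochondrial genes, without the 2 farthest mice and without single mice (the last added after the data were seen). With 30 to 100 counts of *Npas2* and 103 to 225 of *Dbp* per mouse, depth limits these most.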

Other observations

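*Per1* also answers to glucocorticoids, and a list of 14 glucocorticoid-responsive genes that includes it was read beside the clock. All 14 had a positive log2 fold change of *Egr1*-/- over *Egr1*+/+ mice, with a median of 0.33, where 8858 of the 17667 genes tested were positive. *Egr1*+/+ replicate 1 was the lowest mouse for each of the 14, so the shared direction rested in part on that mouse. *Zbtb16*, for example, was at 44.8, 119 and 54.9 CPM in *Egr1*+/+ mice and at 92.5, 79.4 and 56.7 CPM in *Egr1*-/- mice. Without that mouse the log2 fold change of *Per1* was 0.12. None passed the adjusted threshold in edgeR or in DESeq2, and 3 were higher at an unadjusted p under 0.05, where 5.06% of all genes were. These were *Cdkn1a*, the gene of a cell cycle inhibitor, at 0.85, *Pdk4*, a kinase gene of the pyruvate dehydrogenase switch, at 0.51, and *Sgk1*, a kinase gene induced by corticosteroids, at 0.43. *Mt1* and *Per1* had the next lowest p. *Fkbp5*, a chaperone gene induced by the glucocorticoid receptor, was at 7.80, 23.6 and 8.44 CPM in the *Egr1*+/+ mice and at 19.4, 19.4 and 16.4 CPM in the *Egr1*-/- mice. *Egr1*+/+ replicate 2 thus lay above the *Egr1*-/- mice for *Fkbp5*, and within their range for *Per1*. *Fkbp5* was chosen after its values were seen. A part of glucocorticoids in the level of *Per1* was not tested. The summed level of the 14 genes was 583, 1042 and 863 CPM in the *Egr1*+/+ mice and 1103, 925 and 1085 CPM in the *Egr1*-/- mice.

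Of 12 immediate-early genes, 7 had a positive and 5 a negative log2 fold change, with a median of 0.11. By edgeR 0 of them had an adjusted p under 0.05 and DESeq2 called 0, while 3 were higher at an unadjusted p under 0.05 (5.06% of all genes) and 0 lower (5.6%). These were *Egr3*, a relative of *Egr1*, at 1.02, *Junb*, a subunit gene of the AP-1 factor, at 0.52, and *Nr4a1*, an orphan nuclear receptor gene, at 0.49. The next lowest p were those of *Ier3* and *Fos*. The summed level of the 12 was 71.5 to 98.8 CPM in *Egr1*+/+ mice and 88.4 to 103 CPM in *Egr1*-/- mice, overlapping.

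Among the 9773 genes with a mean of at least 5 CPM, the closest to *Arntl* over the 6 mice were *Tuba1a* (r of 0.996), *Fam45a* (0.989), *Mid2* (0.988), *Fat4* (0.980) and *Myadm* (0.975), of which none is on the clock lists. They are the highest of 9773 coefficients over 6 mice, so the size of r alone shows no relation. *Per2* stood at rank 9318 in this order and *Per1* at rank 8868, both toward its negative end. *Npas2*, with r of 0.76 to *Arntl*, had a mean under 5 CPM and was not ranked. The closest to *Dbp* were *Snx5* (r of 0.997), *Ubr1* (0.988), *Cttnbp2nl* (0.988), *Camkk2* (0.985) and *Mllt3* (0.979). *Nr1d2* was the member nearest to *Dbp*, with r of 0.75 at rank 289, while *Nr1d1* came at rank 2587 and *Hlf* at rank 8292. The points share libraries and litters, and the coefficients are given as a description over 6 mice.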
